A study of Homo sapiens with 6 samples.

Results

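The spindle assembly checkpoint and the machinery that starts anaphase were followed through 10 genes, BUB1, BUB1B, BUB3, MAD2L1, MAD1L1, TTK, CDC20, FZR1, PTTG1 and ESPL1. They were chosen by name for their roles in mitosis, with earlier results of these data known, and matched 10 of the 61806 genes in the deposited table. The study had already named BUB1 among the genes that changed in these samples. Shares of all genes are therefore set beside the counts below for scale only. RNA-seq had been performed on the MDA-MB-231 line, which was derived from a human breast tumour of the triple-negative type, with 3 control samples and 3 samples treated with 20 μM Parishin B (PB), a phenolic compound of Gastrodia elata, for 24 h. All 6 samples came from this single line, and the vehicle of the control RNA-seq samples is not given in the sources used here. The sources do not say whether replicates were separate cultures, so the p-values measure the spread between these samples, which may be technical.

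During mitosis, kinetochores that are not yet attached to the spindle recruit the kinases TTK and BUB1 and the MAD1L1-MAD2L1 complex. There, MAD2L1, BUB1B and BUB3 are assembled on CDC20 into the mitotic checkpoint complex, which restrains the anaphase-promoting complex (APC/C), a ubiquitin ligase. Once all chromosomes are attached, CDC20-bound APC/C marks securin (PTTG1) and cyclin B for destruction, separase (ESPL1) is released, and cohesin is cut so that the sister chromatids part. FZR1, also known as CDH1 (a different protein from the E-cadherin gene CDH1), takes over from CDC20 as the APC/C co-activator in late mitosis and G1. Most of these genes are transcribed in G2 and mitosis, so their mRNA is known to be low in cells that are not cycling.

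The total counts were 15681655 to 21986948 per sample. Levels are given as FPKM, fragments scaled by exon length and library total, and 24200 genes averaging 0.1 FPKM or more were tested. Log2 fold changes, and the folds and percents of a control level taken from them, come from edgeR's fit. That fit further scales each library by a TMM factor, 0.948 to 0.962 in the control samples and 1.044 to 1.049 with PB. The printed FPKM lack this factor, so their ratios differ from the fitted folds and percents. The label was checked with markers of a mesenchymal-like line, of which 9 of 9 were tested. At the threshold used below 3 were lower (6.73% of all genes tested). Without its fold change line 8 were lower and 1 was higher (26.1% and 24.1% of all genes tested). Their summed level was 1095 to 1120 FPKM in the control samples and 1006 to 1010 FPKM with PB. The 3 lower at the threshold were TGFBI, FN1 and CAV1, with log2 fold changes of -1.50, -1.46 and -1.16. VIM, the most abundant (603 FPKM in the control samples and 635 FPKM with PB), made up much of the summed level. Its fitted log2 fold change of -0.059 was the smallest in size of the 9. Of 13 luminal or epithelial markers, 10 were tested and 6 were lower at the threshold used below (6.73% of all genes tested). Without its fold change line 6 were lower and 2 were higher. The summed level of the 13 was 444 to 451 FPKM in the control samples and 163 to 168 FPKM with PB. Much of it was KRT18 (286 to 121 FPKM) and KRT8 (107 to 38.9 FPKM). No marker was at 0 in both groups, and CDH1 fell from 1337 to 4 counts over the 3 samples. Of 5 immune and endothelial markers, only CD68 was tested, and their sum was 0.34 to 0.56 FPKM in the control samples and 0.58 to 0.69 FPKM with PB. Counted in the control samples (30 or more in each) but nearly absent with PB (3 or fewer in each) were 113 genes, against 1 gene in the other direction, and the 113 held 0.178% to 0.181% of the control counts. Whether RNA of other cells contributed to the changes of the 10 genes was not tested.

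Of the 10 genes, 7 were lower with PB by edgeR's quasi-likelihood test when a call required an adjusted p (Benjamini-Hochberg) no higher than 0.05 together with a log2 fold change whose size reached 1, against 6.73% of all genes tested that were lower at this threshold. These were BUB1, BUB1B, CDC20, PTTG1, MAD2L1, ESPL1 and TTK. In edgeR's fit they kept between 25.5% and 38.4% of their control level. Without the fold change line, 9 of the 10 were lower (26.1% of all genes tested). BUB3 and FZR1 were fitted at 63.2% and 69.1% of their control level. MAD1L1 went the other way and passed the test without the fold change line (24.1% of all genes tested were higher by that rule). The median log2 fold change of the 10 genes was -1.61, where that of all genes tested was 0.011. In bulk RNA, fewer cells in G2 or mitosis and less mRNA per cell cannot be told apart. The study also measured the cell cycle of this line by flow cytometry and reported that PB blocked the G2/M phase. How that block relates to these RNA changes was not tested.

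The kinases of the checkpoint had the largest and the smallest of these 7 decreases. BUB1 (chr2:110637528-110678063, hg38, minus strand), a kinase that phosphorylates histone H2A at centromeres and recruits other checkpoint proteins, was at 66.2, 64.2 and 65.8 FPKM in control replicates 1, 2 and 3. In PB replicates 1, 2 and 3 it was at 17.4, 18.8 and 18.6 FPKM. The groups were far apart. In edgeR's fit BUB1 was 3.92-fold lower with PB, a log2 fold change of -1.97 (standard error 0.029, 95% interval from -2.03 to -1.92). Only 3.77% of the genes tested had a lower log2 fold change than BUB1.

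BUB1B (chr15:40161023-40221123, plus strand) encodes BUBR1, the BUB1 paralog that acts inside the mitotic checkpoint complex as an inhibitor of the APC/C. It lay at 46.6, 46.5 and 45.4 FPKM in the control samples and at 14.66, 14.19 and 13.95 FPKM in the PB samples. The log2 fold change of -1.83 (standard error 0.035) had a 95% interval from -1.90 to -1.76, which in this fit did not overlap that of BUB1. DESeq2 gave larger standard errors, 0.0345 for BUB1 (-1.97) and 0.0424 for BUB1B (-1.83), so this gap depends on the tool. TTK (chr6:80003887-80042527, plus strand), also called MPS1, is the kinase that starts checkpoint signalling at unattached kinetochores. Its level was 55.5, 57.0 and 55.3 FPKM in the control samples and 23.3, 24 and 23.4 FPKM in the PB samples. The fit put it 2.60-fold lower. TTK thus had the smallest decrease of the 7 genes, with a log2 fold change of -1.38 (standard error 0.031, 95% interval from -1.44 to -1.32).

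BUB3 (chr10:123154402-123170467, plus strand), the adaptor that carries BUB1 and BUB1B to the kinetochore, changed less than either partner. It was at 29.7, 29.4 and 28.9 FPKM in the control samples and 20.4, 19.8 and 20.8 FPKM with PB. All 3 PB samples were below all 3 control samples, and the log2 fold change of -0.66 (standard error 0.029) passed edgeR's test with an adjusted p of 1.818e-113 while staying short of the fold change line.

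The MAD1L1-MAD2L1 pair was split. MAD2L1 (chr4:120055623-120066858, minus strand), the protein that changes conformation and closes on CDC20, was at 17.5, 17.9 and 17.6 FPKM in the control samples and 6.52, 6.24 and 5.74 FPKM with PB. Its log2 fold change was -1.66 (standard error 0.045), or 3.15-fold lower in the fit. MAD1L1 (chr7:1815793-2233243, minus strand), the kinetochore-bound template on which MAD2L1 is converted, held only 44, 53 and 64 counts in the control samples and 85, 77 and 108 counts in the PB samples. Scaled by length and depth this was 0.39, 0.44 and 0.42 FPKM against 0.77, 0.71 and 0.82 FPKM, so every PB sample was above every control sample. Its log2 fold change was 0.74 (standard error 0.164, 95% interval from 0.42 to 1.07), with an adjusted p of 1.780e-05 in edgeR's test.

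The MAD1L1 values rest on few counts and on a crowded locus. An unnamed protein-coding gene, ENSG00000286192, lies on the same strand from chr7:1815804-2242215 and overlaps nearly all of MAD1L1, yet it held only 1 to 5 counts per sample. How the counting treated reads that fall on both genes is not given in the sources used here, and the part of this overlap in the low level and in the rise of MAD1L1 was not tested. On the log2(FPKM + 1) scale of limma, which compresses low values, the difference was 0.32.

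The 2 co-activators of the APC/C fell by different amounts. CDC20 (chr1:43358981-43363203, plus strand), target of the checkpoint and activator of the APC/C in early mitosis, had the highest FPKM of the 10 genes in both groups. It was at 108.4, 105.9 and 109.2 FPKM in the control samples and at 31.5, 34.9 and 35.4 FPKM in the PB samples, with a log2 fold change of -1.80 (standard error 0.034). FZR1 (chr19:3506311-3538334, plus strand) was at 6.69, 7.44 and 7.30 FPKM in the control samples and at 5.14, 5.79 and 5.35 FPKM with PB. These values did not overlap either, but the fitted FZR1 decrease was only 1.45-fold (log2 fold change -0.53, standard error 0.053, adjusted p = 4.304e-23 in edgeR's test).

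Securin and separase fell together. PTTG1 (chr5:160421855-160428739, plus strand), the inhibitor and chaperone of separase that the APC/C degrades at anaphase, was at 98.1, 100.6 and 96.4 FPKM in the control samples and at 30.3, 32.8 and 32.1 FPKM with PB. Its log2 fold change was -1.76 (standard error 0.035). ESPL1 (chr12:53268299-53293638, plus strand), the protease that cuts the RAD21 subunit of cohesin, was at 10.3, 10.7 and 11.2 FPKM in the control samples and at 3.85, 3.90 and 4.26 FPKM with PB. Its log2 fold change was -1.56 (standard error 0.045), or 2.94-fold lower in the fit.

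**Figure D1:**
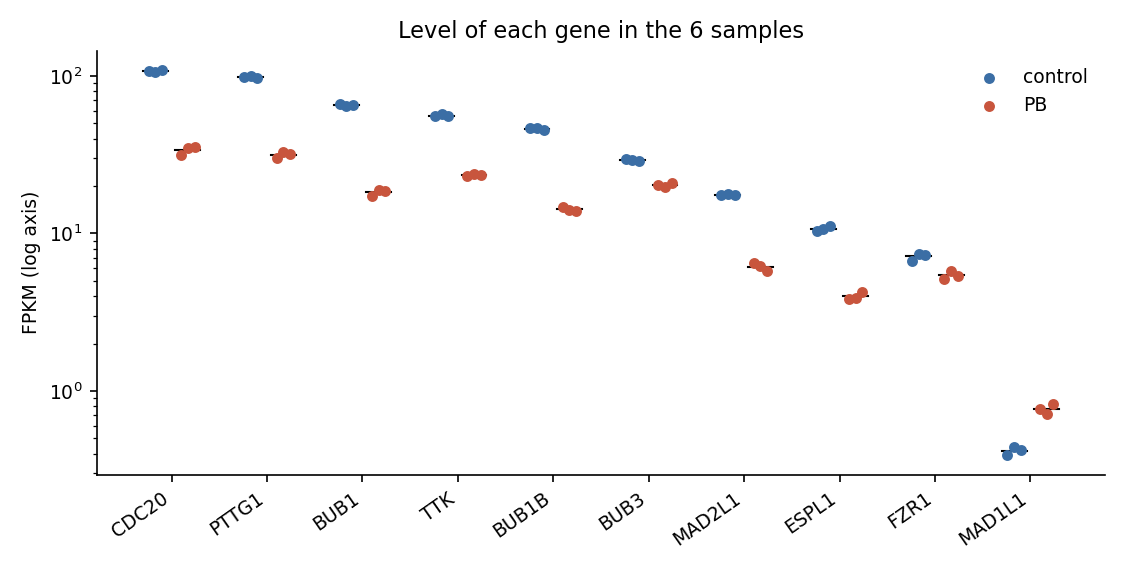
FPKM on a log axis for each of the 10 genes in the 3 control samples (blue) and the 3 PB samples (red), with the group mean as a bar, ordered by control level. In 9 genes the PB points lie below all control points, and in MAD1L1 they lie above.

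No gene had overlapping groups. In 9 of the 10 genes all PB samples lay below all control samples (21.6% of all genes tested), and in MAD1L1 every PB sample was above (34.1% of all genes tested). Permuting the FPKM values of each gene exactly (two-sided) gave p = 0.1, the smallest possible for 3 against 3. The log10 of the adjusted p in edgeR's test ran from -1002 for BUB1 to -259 for ESPL1 among the 7 genes. These values varied widely with the genes, samples and tool used. When genes under a mean FPKM of 1 were left out, the adjusted p of edgeR's test was 1.502e-45 for BUB1 and 3.253e-33 for ESPL1. Without PB replicate 3 it was 4.801e-38 and 7.017e-28 in edgeR's test, and with limma on log2(FPKM + 0.1) it was 2.588e-07 and 3.821e-06. The spread between replicates was small, since the coefficient of variation of FPKM was at most 7.18% in any gene and group, the highest being that of MAD1L1 with PB.

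**Figure D2:**
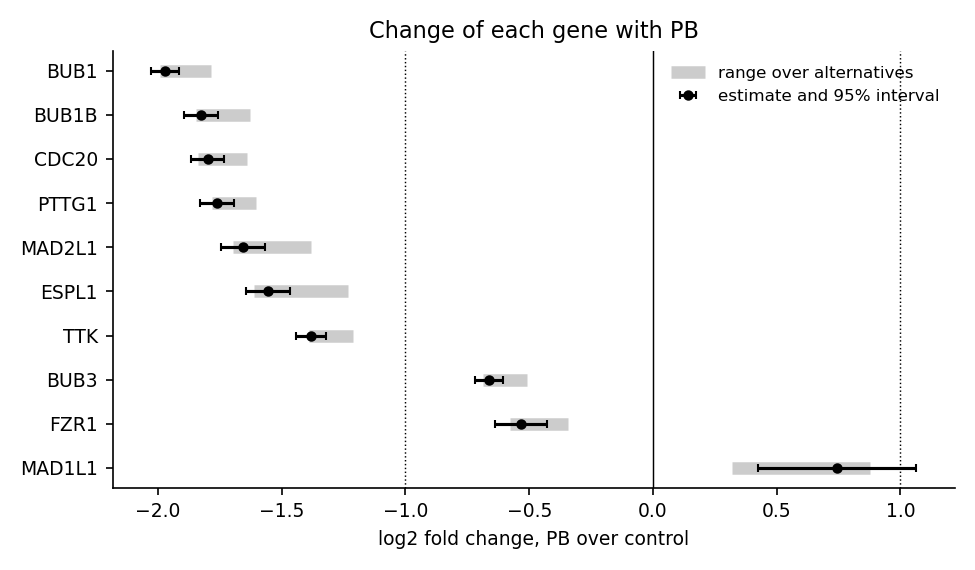
Log2 fold change of PB over control for each gene, with the 95% interval from edgeR (black) and the range over the alternative analyses (grey); dotted lines mark a log2 fold change of 1 in size. The 7 genes below the left line range from -1.97 for BUB1 to -1.38 for TTK, BUB3 and FZR1 lie between that line and 0, and MAD1L1 lies above 0.

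The order of the levels by FPKM changed with PB, and such an order between genes depends on the exonic lengths used. In the control samples the order by FPKM was CDC20, PTTG1, BUB1, TTK, BUB1B, BUB3, MAD2L1, ESPL1, FZR1 and MAD1L1, and no neighbours in it overlapped between samples. With PB, BUB3 stood above BUB1 and BUB1B, TTK stood above BUB1, and FZR1 stood above ESPL1. In that order CDC20 and PTTG1 overlapped, as did MAD2L1 and FZR1, so these neighbours were not separated beyond their spread. Summed over the 10 genes, the level was 439, 440 and 438 FPKM in the control samples and 154, 161 and 161 FPKM in the PB samples. The sum was therefore nearly constant within a group, and the 5 most abundant control genes were all among the 7 that fell past the fold change line.

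Ratios between genes that work together were compared within each sample, since such a ratio does not depend on the scaling of the libraries. The ratio of CDC20 to FZR1 FPKM was 16.20, 14.23 and 14.96 in the control samples and 6.12, 6.03 and 6.62 with PB. This is a difference of -1.27 on the log2 scale (standard error 0.069), so the mRNA balance between the early and the late co-activator was shifted toward FZR1. The ratio of MAD2L1 to MAD1L1 went from 44.9, 40.8 and 41.8 in the control samples to 8.47, 8.79 and 7 with PB, a log2 difference of -2.40 (standard error 0.110), with the limits on the MAD1L1 counts given above.

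By FPKM, the kinases and their adaptor also changed places. BUB1 stood at 2.23, 2.18 and 2.28 times the FPKM of BUB3 in the control samples and at 0.852, 0.951 and 0.894 times with PB. BUB1B stood at 1.57, 1.58 and 1.57 times BUB3 in the control samples and at 0.719, 0.718 and 0.670 times with PB. The log2 differences were -1.31 (standard error 0.049) for BUB1 and -1.16 (standard error 0.034) for BUB1B. By FPKM, BUB3 was thus the lowest of the 3 in the control samples and the highest with PB. That order depends on the exonic lengths used, 8175 bases for BUB3 and 4463 for BUB1B. By raw counts BUB3 was above BUB1B in the control samples too (3964, 4121 and 5197 against 3394, 3554 and 4455).

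By contrast, the inhibitor and its protease stayed nearly in step. The ratio of PTTG1 to ESPL1 was 9.51, 9.40 and 8.60 in the control samples and 7.87, 8.40 and 7.54 with PB, a log2 difference of -0.21 (95% interval from -0.39 to -0.029). The ratio of CDC20 to MAD2L1 was 6.19, 5.90 and 6.21 in the control samples and 4.83, 5.59 and 6.17 with PB. These groups overlapped, and the log2 difference of -0.15 had a 95% interval from -0.44 to 0.14, which holds both no change and a decrease of that size. In exact two-sided permutation tests of the 6 ratios, p was 0.1 for 5 of them (adjusted p = 0.12) and 0.2 for CDC20 to MAD2L1 (adjusted p = 0.2), where 0.1 is the smallest possible with 3 samples against 3.

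**Figure D3:**
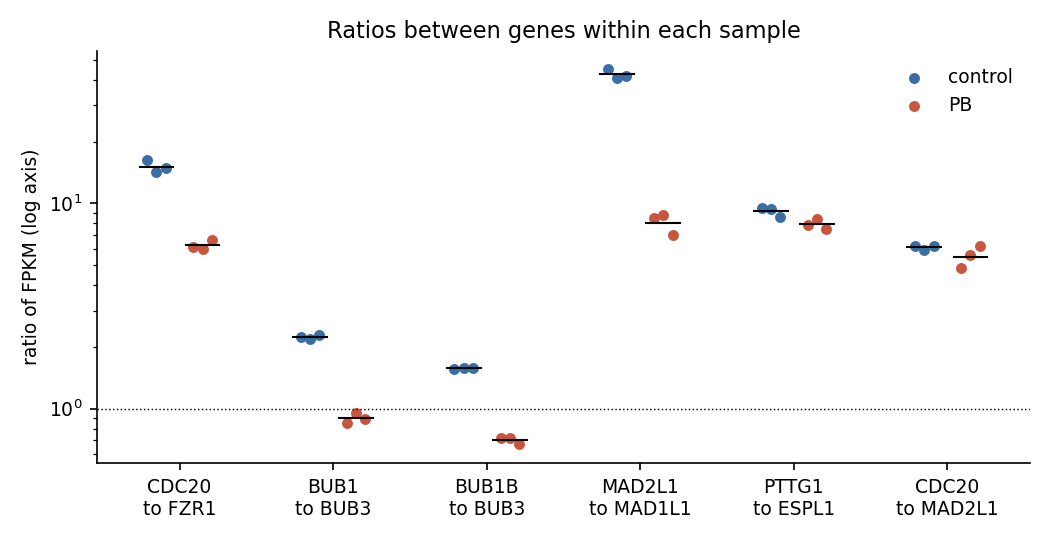
Ratio of the FPKM values of 2 genes within each sample on a log axis, for 3 control samples (blue) and 3 PB samples (red), with the geometric mean as a bar and a dotted line at equal levels. BUB1 to BUB3 and BUB1B to BUB3 cross the line, while PTTG1 to ESPL1 and CDC20 to MAD2L1 hardly move.

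Other genes of the same pathway were examined in lists by role, which were also chosen with earlier results of these data known. At the threshold, 6.73% of all genes tested were lower and 5.4% were higher. In lists this short, 0 genes higher is therefore near the share of all genes. Of 15 checkpoint partners, which build or read the kinetochore signal, 11 were lower at the threshold and 0 were higher, with a median log2 fold change of -1.55. The lowest was SPC25, a subunit of the NDC80 complex that binds microtubules, which fell from 28.5 ± 0.050 to 8.45 ± 0.499 FPKM (SD, n = 3; log2 fold change -1.89). TRIP13, the ATPase that takes MAD2L1 out of the checkpoint complex, fell by 1.85 on the log2 scale, whereas its adaptor MAD2L1BP had the highest value of the list at -0.026 and did not pass the test. KNL1, the kinetochore scaffold that binds BUB1 and BUB3 after TTK phosphorylates it, fell from 26.6 ± 0.709 to 9.91 ± 0.298 FPKM (SD, n = 3).

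Of 14 core subunits of the APC/C, 0 passed the fold change line in either direction, and the median log2 fold change was -0.31. With 6.73% of all genes tested lower and 5.4% higher at the threshold, 0 of 14 is near the share of all genes. Without that line edgeR's test called 9 of them lower (26.1% of all genes tested) and 4 higher, the latter a share near the 24.1% of all genes tested. The lowest was ANAPC15, a small subunit known for helping turn over the checkpoint complex, with a log2 fold change of -0.92, and the highest was ANAPC16 at 0.40. The summed level of the 14 subunits was 236 to 239 FPKM in the control samples and 221 to 225 FPKM with PB.

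Among 8 enzymes, inhibitors and deubiquitinases around the APC/C, 4 were lower at the threshold (6.73% of all genes tested) and 0 higher. UBE2C, the ubiquitin-conjugating enzyme that starts chains on APC/C substrates, fell from 89.2 ± 0.846 to 30.2 ± 2.31 FPKM (SD, n = 3), the largest decrease of the list with a log2 fold change of -1.69. UBE2S, which extends those chains, fell by 1.12 on the log2 scale, and FBXO5 (EMI1), an inhibitor that holds the APC/C off before mitosis, fell by 1.27. The highest value of the list was that of USP44, a deubiquitinase, at 0.44.

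Substrates of the APC/C, some of which, such as NEK2, are also checkpoint partners, were mostly lower. Of 17 tested, 15 were lower at the threshold, and all 17 passed edgeR's test without the fold change line, with a median log2 fold change of -1.68. CCNB1 (cyclin B1), degraded alongside securin, had the lowest value and fell from 181.0 ± 2.61 to 40.1 ± 0.910 FPKM (SD, n = 3; log2 fold change -2.31). The study reported more cyclin B1 protein in lung tissue of mice given PB, which is another measure and another material. The highest value was that of SKP2, a G1 substrate of FZR1-bound APC/C, at -0.92.

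Cohesin, the target of separase, was mixed. Of 16 cohesin genes, loaders, acetyltransferases and protectors, 5 were lower at the threshold (6.73% of all genes tested) and 0 higher. The median log2 fold change was -0.38. The 5 were the core subunit SMC1A (-1.04 on the log2 scale), the acetyltransferase ESCO2 (-1.75, the lowest), the cohesin protectors SGO1 (-1.24) and SGO2 (-1.53), and CDCA5 (sororin, -1.003). RAD21, the subunit that separase cuts, fell from 46.7 ± 0.491 to 34.2 ± 0.584 FPKM (SD, n = 3), short of the fold change line. HDAC8, the deacetylase that recycles the SMC3 subunit, had the highest value of the list at 0.49. SMC1A and CDCA5 lay close to the line, and with library size alone in place of TMM the list held 3 genes past it.

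Of 15 regulators of late cell cycle transcription, 11 were lower and 4 higher in edgeR's test without the fold change line, against 26.1% and 24.1% of all genes tested, so the share that was higher was near that of all genes. At the threshold 3 were lower (6.73% of all genes tested). They were MYBL2 (B-Myb, 65.0 ± 1.02 to 14.99 ± 0.397 FPKM, SD, n = 3; log2 fold change -2.25, the lowest), FOXM1 (39.1 ± 0.079 to 16.4 ± 0.357 FPKM, SD, n = 3; -1.39) and TFDP1 (-1.27). MYBL2 and FOXM1 activate G2 and mitotic genes, and TFDP1 is the partner of E2F factors. The median of the list was -0.24, and its highest value was that of LIN37, a subunit of the repressing DREAM complex, at 0.54. For comparison, 12 housekeeping genes had a median of -0.33, and 1 of them, PPIA, was lower at the threshold (log2 fold change -1.06).

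**Figure D4:**
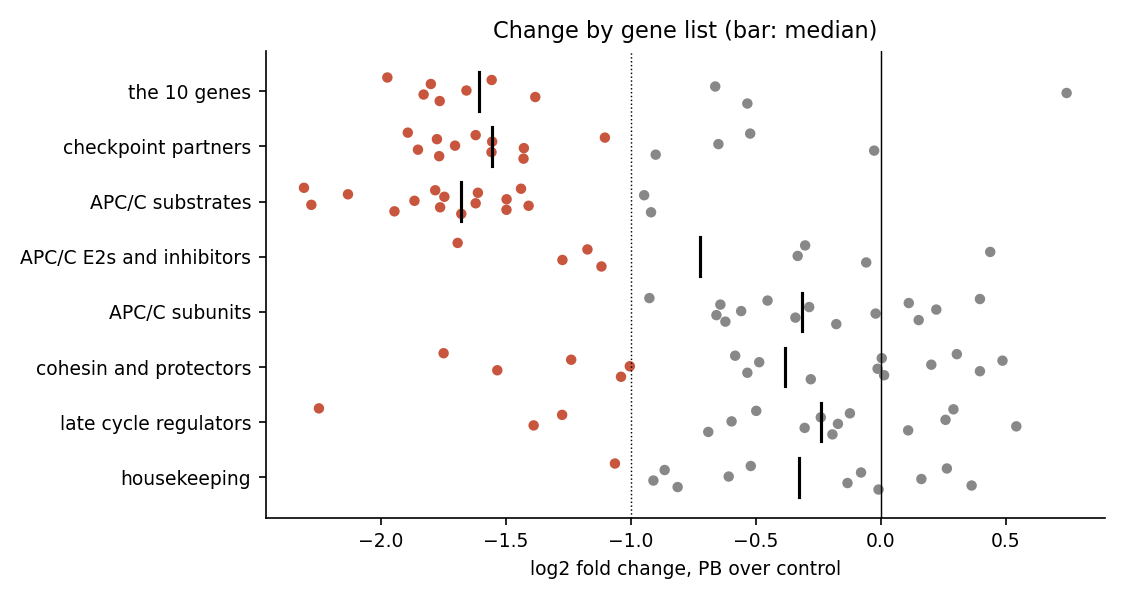
Log2 fold change of PB over control for each gene of 8 lists, with the median of each list as a bar; red points lie at or below the dotted line at -1 and all of them passed edgeR's test. The median lies at or below -1.55 for the 10 genes, the checkpoint partners and the APC/C substrates, and at -0.31 for the APC/C subunits.

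The promoters of the genes are described here, and whether their letters have a part in the changes was not tested. RefSeq promoters (GRCh38.p14, 250 bases before to 50 bases after the annotated start) matched 8 of the 10 genes, with 2 start sites each for PTTG1 and FZR1. No promoter was available for BUB3 or for TTK, one of the 7 genes that fell past the fold change line. They were searched on both strands for CCAAT, the box that the factor NF-Y binds, and for TTTGAA and TTCGAA, forms of the cell cycle genes homology region (CHR) that the DREAM and B-Myb complexes are known to bind. Some promoters of genes that fell are given below in the direction of transcription, with the CHR letters in capitals, or the CCAAT letters in the case of PTTG1.
CDC20, chr1:43358904-43358933, plus strand: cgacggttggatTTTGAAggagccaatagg
BUB1, chr2:110678045-110678074, minus strand: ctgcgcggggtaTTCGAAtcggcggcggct
BUB1B, chr15:40161034-40161063, plus strand: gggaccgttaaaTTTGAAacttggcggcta
ESPL1, chr12:53268256-53268285, plus strand: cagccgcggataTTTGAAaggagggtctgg
MAD2L1, chr4:120066807-120066836, minus strand: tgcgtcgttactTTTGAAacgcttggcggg
PTTG1, chr5:160421792-160421821, plus strand: tgggcggaagagCCAATtgggccgcgagtt

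A TTTGAA or TTCGAA was found in 6 of the 8 genes with a promoter, where 16.4% of the 35116 promoters of the table hold one. It began 65 bases before the start site in CDC20, which had another on the opposite strand 178 bases before it, 31 bases before in ESPL1 and 23 bases before in BUB1B. In BUB1 the palindromic TTCGAA began at base 2 of the transcript, a form held by 1.45% of all promoters, and in MAD2L1 the motif began at base 25. CCAAT was found in 5 of the 8 genes, against 34.6% of all promoters. In CDC20, 2 CCAAT boxes lay 100 and 55 bases before the start, and in BUB1, 2 lay 79 and 54 bases before it on opposite strands. PTTG1 had 3 CCAAT matches, of which 2 overlap in the palindrome shown above, and no CHR letters in either window.

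FZR1, like BUB1B, had a single match in its upstream window. This was a TTTGAA 226 bases before the start site, and its second window held no match. MAD1L1 had none of these letters in its window. Of the 8 genes, 4 held both kinds of motif (BUB1, CDC20, ESPL1 and MAD2L1), as did 6.38% of all promoters. A match is a description of the letters in the window, and binding was not measured.

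**Figure D5:**
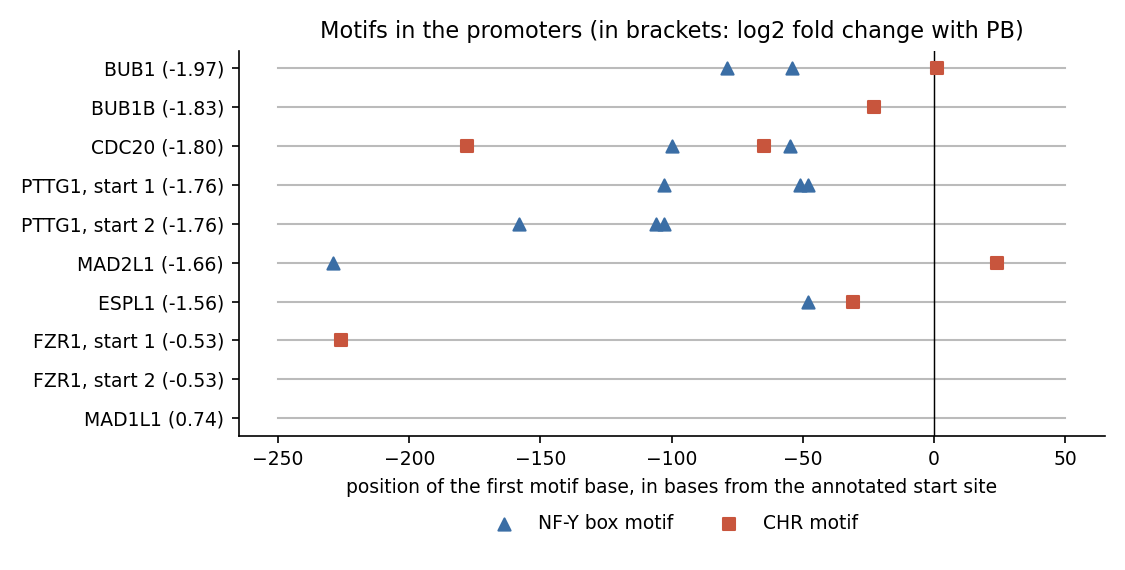
Positions of the first base of each match, in bases from the annotated start site, for the CHR motif (red squares) and the NF-Y box motif (blue triangles) in the 10 promoters of 8 genes, ordered by log2 fold change. FZR1 (far upstream of its first start site) and BUB1B each hold a single match, and MAD1L1 holds none. BUB3 and TTK are not shown because no promoter was available for them.

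The genes whose profile over the 6 samples was most like that of CDC20 were ranked among the 13533 genes whose FPKM averaged 1 or more. The measure was the root mean square difference of centred log2 CPM, here counts scaled by the TMM-adjusted library total with a small prior count. The nearest were KNSTRN (0.033), a kinetochore protein that supports anaphase, TPX2 (0.037), the spindle factor that activates Aurora A, PLK1 (0.040), the mitotic kinase, PTTG1 (0.044) and FDFT1 (0.044), the squalene synthase of sterol synthesis. Apart from PTTG1, the genes of the checkpoint lay further off, from BUB1B (0.078) and BUB1 (0.088) to MAD2L1 (0.129), ESPL1 (0.133) and TTK (0.218). BUB3 (0.572) and FZR1 (0.640) were the most distant of the 9 genes of the set that reached a mean FPKM of 1. With 2 groups of 3 samples, this measure mainly reflects the size of the PB difference.

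Reads of neighbours and copies were checked from the same table. Besides MAD1L1, only BUB1B and FZR1 overlap other genes by coordinates. BUB1B overlaps PAK6 (3 to 6 counts per control sample and 19 to 26 counts per PB sample) and the BUB1B-PAK6 readthrough (at most 2 counts per sample), while FZR1 meets MFSD12 at its end on the opposite strand. MFSD12 held 315 to 418 counts per control sample and 363 to 458 counts per PB sample, against 707 to 1040 and 529 to 657 counts for FZR1. Since strandedness is not known, reads of the short shared stretch cannot be told apart. The pseudogene CDC20P1 held 56, 85 and 86 counts in the control samples and 25, 14 and 27 counts with PB, against 3557, 3650 and 4830 and 1006, 1101 and 1351 counts for CDC20. The PTTG1 relatives PTTG2 and PTTG3P held at most 4 counts in any sample, so their annotated rows took few of the reads that could be shared.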

How the data were processed

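Poly(A) RNA of 6 MDA-MB-231 samples was sequenced as paired-end reads. The authors deposited raw counts per gene and FPKM values; 100% of the FPKM values equalled, within 0.005, the count scaled by exonic length and total count. The submitters' processing notes name hg38, HTSeq 0.6.1, Cufflinks 2.2.1 and DESeq2 without their roles, and strandedness is not given in the sources used here. Columns without a matching sample numbered 0. A fixed floor of 3 counts, the same for every sample, corresponds to 0.136 to 0.191 CPM at these library totals.

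Samples were grouped by their titles; dose and time are from the study's methods. Genes were kept when their FPKM averaged 0.1 or more across both groups (24200 genes), and were tested with edgeR 4.0.16 in R 4.3.3 (TMM, quasi-likelihood, Benjamini-Hochberg adjustment over all genes), on the deposited counts. The study used DESeq2, run here as an alternative (1.42.0). The common dispersion was 0.000495, and the median biological coefficient of variation of single genes was 6.97%. The quasi-likelihood fit estimated no extra variation between genes in its quasi-dispersion beyond the trend, and its p-values are very small. Intervals of the log2 fold changes are 95% intervals from that fit, and those of ratios are from the 6 log2 FPKM ratios. The procedures were tested on simulated data. Named genes are the 10 genes, the highest and lowest of each list other than the marker lists, any called against the list's median, and the 5 profiles nearest to CDC20. One gene that this rule names is not reported here. KNL1, TRIP13, RAD21, UBE2S, FBXO5, FOXM1, TFDP1, SMC1A, SGO1, SGO2, CDCA5, TGFBI, FN1, CAV1, VIM, CDH1, KRT8 and KRT18, and the neighbours, were named after their values were seen. The genes and lists were chosen with earlier results of these data known. Alternatives were DESeq2, library size alone, upper-quartile scaling, other FPKM filters, limma 3.58.1, robust dispersion, a replicate block, other thresholds, 113 genes left out and each sample left out. Promoters came from RefSeq (GRCh38.p14); protein sequences were not used here.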

Additional observations from a re-analysis of the deposited data

How the results depend on the processing

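All 10 genes kept their direction and their side of the threshold in each of the 16 alternative fits that tested them (MAD1L1 was below the filter of a mean FPKM of 1). The range was widest for ESPL1 (-1.61 to -1.23) among the genes that fell and was 0.32 to 0.88 for MAD1L1. Library size alone raised the median log2 fold change of all genes from 0.011 to 0.14 and gave 1336 lower genes among 3145 called, where TMM gave 1629 lower and 1296 higher. The 6 ratio changes kept their sign when a sample was left out, the smallest being CDC20 to MAD2L1 (-0.23 to -0.054).

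Counts of lower genes depended on the fold change line. With the line at a log2 fold change of 2, the counts were 0 for the 10 genes, 0 for checkpoint partners, 0 for APC/C enzymes and inhibitors, 3 for APC/C substrates, 0 for cohesin, 1 for late cycle regulators and 0 for housekeeping genes. With no line, they were 9 for APC/C subunits, 9 for cohesin, 11 for late cycle regulators and 7 for housekeeping genes. Cohesin had 3 with library size alone, 3 with the upper quartile, 3 with limma on log2(FPKM + 0.1) and 2 with limma on log2(FPKM + 1), and housekeeping had 0 in each of these. APC/C enzymes and inhibitors had 2 with limma on log2(FPKM + 1).

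No pairing by replicate number was detected. Deviations of same-numbered samples correlated at -0.015, 0.044 and -0.026, and those of differently numbered samples at -0.036 to 0.054. Such values cannot exclude a pairing, because the samples of a group differed little. With the replicate block, 7 of the 10 genes were again lower, and 2753 genes were called in all.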
